A study of Mus musculus with 15 samples.

Results

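The regulatory T cell signature described here is a set of 7 genes, Foxp3, Lrrc32, Nrp1, Entpd1, Nt5e, Gpr83 and Capg, followed through the accessible chromatin regions that lie nearest to them. The members were chosen by name. A region is the union of ATAC-seq peaks that share at least 1 bp between libraries, and it belongs to the nearest protein-coding gene within 100 kb of the gene's bounds. Of 83743 regions with a peak in at least 2 of 15 libraries, 82 belonged to these 7 of 16662 genes: 38 to Nrp1, 14 to Nt5e, 13 to Entpd1, 6 to Lrrc32, 4 to Foxp3, 4 to Capg and 3 to Gpr83. They were 230 to 2797 bp wide, with a median of 709 bp, and 52 lay inside or across the bounds of their gene. Another 25 regions near these genes had a peak in 1 library, with a median height of 0.421 per M fragments (M, 1000000), and were not tested. The 7 regions seen in 2 libraries stood at a median of 0.654. The farthest region kept lay 92818 bp from Nrp1 and the nearest one outside the limit 105221 bp from Nt5e.

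Regulatory T cells are CD4+ T cells that restrain other immune cells and depend on the transcription factor Foxp3. The Foxp3 gene carries conserved noncoding elements in its introns, among them CNS2, also called the Treg-specific demethylated region, which holds Foxp3 expression through cell division, and CNS3, which helps to start it. The other 6 genes are surface or cytoskeletal genes expressed at high levels by mouse regulatory T cells: Lrrc32 encodes GARP, which docks latent TGF-beta, Nrp1 encodes neuropilin-1, a coreceptor for semaphorins and VEGF, and Entpd1 (CD39) and Nt5e (CD73) convert extracellular ATP to adenosine. Gpr83 encodes a G protein-coupled receptor, and Capg an actin filament capping protein of the gelsolin family.

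ATAC-seq, which reads where a transposase can cut and tag open DNA, was run on mouse CD4+ T cells that carried Irf5 (IRF5+/+, wild type) or lacked it (IRF5-/-, knockout). Its product belongs to the interferon regulatory factors. Cells were untreated (0 h) or had been activated in vitro for 72 h, so that the resting cells gave 4 wild-type and 3 knockout libraries and the activated cells gave 8, split evenly. The labels give the cells as CD4+ with no sort for regulatory T cells, name no activating agent, and give no strain or age and nothing on how the Irf5 allele was made. Activation and 72 h of culture came together and cannot be told apart. In such a bulk population, a lower peak can mean fewer cells with the region open or less opening per cell, and these cannot be told apart either. The labels speak of biological replicates without saying whether each came from its own animal, so the spread behind each p-value is that of these libraries and may be technical.

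Libraries held 20.5 to 29.0 M fragments after filtering and 29994 to 69086 peaks. Knockout library 3 at 0 h stood apart: it had the fewest peaks, its median log2 peak height over regions called in every library was 0.85 against 1.94 to 2.34 in the other 0 h libraries, and 29 of the 82 regions had a peak in it, against 44 to 53. Results that rest on it are given with and without it. All 10 CD4 T cell markers had a region in every library within 1 kb of the gene. Of the B cell markers, Ms4a1, Cd79a and Cd79b had no region, while Pax5 and Ebf1 had one in all libraries. Of 6 myeloid markers, Lyz2 and Adgre1 had none, 2 had a region in all 0 h libraries and 3 in all 72 h libraries. Of 6 NK and cytotoxic markers, Ncr1 and Klrb1c had none, 1 had a region in all 0 h libraries and 2 in all 72 h libraries; Gzmb went from 1 of 7 libraries to 8 of 8. Of the CD8 T cell markers, Cd8a went from 6 of 7 to 1 of 8 and Cd8b1 had a region in all 15 libraries. Among 7 regulatory T cell markers, Il2ra, Ikzf2, Ikzf4, Ctla4 and Lrrc32 had a region in all 15 libraries, Tnfrsf18 in 6 of 7 and then 8 of 8, and Foxp3 itself in 7 of 7 and then 5 of 8. The part of other cell types in the results was not tested.

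The RefSeq promoter table used here (GRCm38.p6, the assembly behind mm10) gave 8 start sites of Foxp3, Nrp1, Nt5e, Gpr83, Entpd1 and Capg. Their promoters had a peak in every library or in none, with 1 in between, and sequences are shown for that contrast. Each sequence is the 250 bases before the start, on the plus strand, with every CG dinucleotide in capitals.
Foxp3, the upstream start, chrX:7579426-7579675, no peak in any library: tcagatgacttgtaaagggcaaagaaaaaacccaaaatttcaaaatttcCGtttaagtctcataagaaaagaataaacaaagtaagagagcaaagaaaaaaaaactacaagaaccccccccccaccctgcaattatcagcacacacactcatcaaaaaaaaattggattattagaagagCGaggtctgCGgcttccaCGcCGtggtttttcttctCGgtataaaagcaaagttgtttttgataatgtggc
Foxp3, the downstream start, chrX:7580233-7580482, no peak in any library: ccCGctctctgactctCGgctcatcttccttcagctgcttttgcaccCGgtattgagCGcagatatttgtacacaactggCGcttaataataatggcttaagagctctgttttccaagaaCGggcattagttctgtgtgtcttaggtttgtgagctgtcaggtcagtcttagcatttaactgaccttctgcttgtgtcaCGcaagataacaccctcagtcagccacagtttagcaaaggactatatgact
Nrp1, chr8:128358823-128359072, a peak in all 15 libraries: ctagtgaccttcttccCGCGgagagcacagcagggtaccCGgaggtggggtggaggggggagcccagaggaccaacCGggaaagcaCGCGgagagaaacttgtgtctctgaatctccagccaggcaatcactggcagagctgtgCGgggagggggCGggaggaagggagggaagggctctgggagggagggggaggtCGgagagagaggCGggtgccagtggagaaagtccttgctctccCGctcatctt
Nt5e, chr9:88327359-88327608, a peak in all 15 libraries: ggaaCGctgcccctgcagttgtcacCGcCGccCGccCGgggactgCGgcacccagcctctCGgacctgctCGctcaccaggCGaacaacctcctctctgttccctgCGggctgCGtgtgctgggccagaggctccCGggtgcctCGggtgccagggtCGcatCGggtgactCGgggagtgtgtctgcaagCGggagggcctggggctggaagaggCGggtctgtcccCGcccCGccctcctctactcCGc
Gpr83, chr9:14859960-14860209, a peak in all 15 libraries: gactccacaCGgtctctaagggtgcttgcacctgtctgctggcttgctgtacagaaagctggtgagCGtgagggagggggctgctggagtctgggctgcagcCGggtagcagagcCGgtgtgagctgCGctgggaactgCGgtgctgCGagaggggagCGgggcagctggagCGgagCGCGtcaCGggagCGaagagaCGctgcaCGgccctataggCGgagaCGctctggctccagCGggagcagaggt
Entpd1, the downstream start, chr19:40659520-40659769, a peak in 12 libraries: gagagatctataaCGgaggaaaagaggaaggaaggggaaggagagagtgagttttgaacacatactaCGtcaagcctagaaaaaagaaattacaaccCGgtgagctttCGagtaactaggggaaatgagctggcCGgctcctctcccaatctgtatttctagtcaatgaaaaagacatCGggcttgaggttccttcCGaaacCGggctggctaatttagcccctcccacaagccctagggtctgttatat

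The 2 Foxp3 promoters held 6 and 7 CG dinucleotides and were covered by a peak in 0 of 15 libraries, counting the 50 bases after the start as well. Those of Nrp1, Gpr83 and Nt5e held 11, 18 and 21, and each had a peak in all 15. The Entpd1 start inside the gene held 8 and was covered in 6 of 7 libraries at 0 h and 6 of 8 at 72 h. The upstream Entpd1 start, with 18 CG dinucleotides, lay under a region at chr19:40611781-40612694 with a peak in all 15 libraries, 5.78 to 14.4 per M fragments high at 0 h and 5.25 to 7.09 at 72 h; that region overlaps Tctn3 too, was assigned to it and is not among the 82. The Capg start listed by RefSeq held 7 and had no peak, while a region across the outer bound of Capg, upstream of that start, stood at 4.51 to 11 per M at 0 h. Over all 32851 promoters in the table, 33.1% had a peak in all libraries, with a median of 18 CG dinucleotides, and 52.4% had none, with a median of 2. So the CG count of the Foxp3 promoters lay above the median of promoters without a peak and below that of promoters with one in every library.

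Short motifs were searched on both strands in these 250 bases, where a match is letters and not a binding site. The ETS core GGAAG was found in 7 of the 8 member promoters and in 64.1% of all promoters, and the NFAT core GGAAA in 4 and in 55.6%; both begin with GGAA but differ in the last letter. A loose NF-kB pattern was found in 3 and in 45.8%, and GGGCGG, the SP/KLF box, in 2 and in 32.7%. CAGACA, an SMAD box, was in 2 and in 17.1%. The STAT motif TTCNNNGAA and AGATAA, a motif of the factor family that includes Gata3, were each in 1, the downstream Foxp3 promoter, and in 7.02% and 9.99% of all. TATAAA was in 1, the upstream Foxp3 promoter, and in 12.4% of all. TGACTCA (AP-1), TGTGGT (RUNX), TGTTTAC (forkhead), an IRF pattern and TGACGTCA (CREB) were in no member promoter, and in 4.46%, 14%, 3.17%, 2.98% and 1.55% of all.

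With activation, Nrp1 and Nt5e acquired regions, Foxp3 lost regions, while no region of Lrrc32, Entpd1, Gpr83 or Capg was called by the test of peak presence. That test is a two-sided exact conditional test of the number of libraries with a peak at 72 h against 0 h, with the genotypes as strata and p-values adjusted by Benjamini-Hochberg across all 83743 regions and a call needs an adjusted p under 0.05. This exact test cannot reach below p = 0.000408. A region called by it is named gained or lost below. Among the 82 regions 15 were gained, which is 18.3% against a background of 18.4% of all regions, so the share of gains was that of any region. Another 7 were lost, which is 8.54% against a background of 4.65%. The 15 gains were 11 regions of Nrp1 and 4 of Nt5e. The 7 losses were 5 regions of Nrp1 and 2 of Foxp3. Peaks in every 72 h library and no 0 h library occurred at 9 regions, 11% of the 82, against 8.86% of all; the reverse occurred at 2, 2.44%, against 1.37%. A further 20 regions had a peak in all 15 libraries, 24.4% against 25.3%. Without knockout library 3 at 0 h, 13 regions were gained and 7 lost, and the share of all regions called in that run is not given here.

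**Figure D1:**
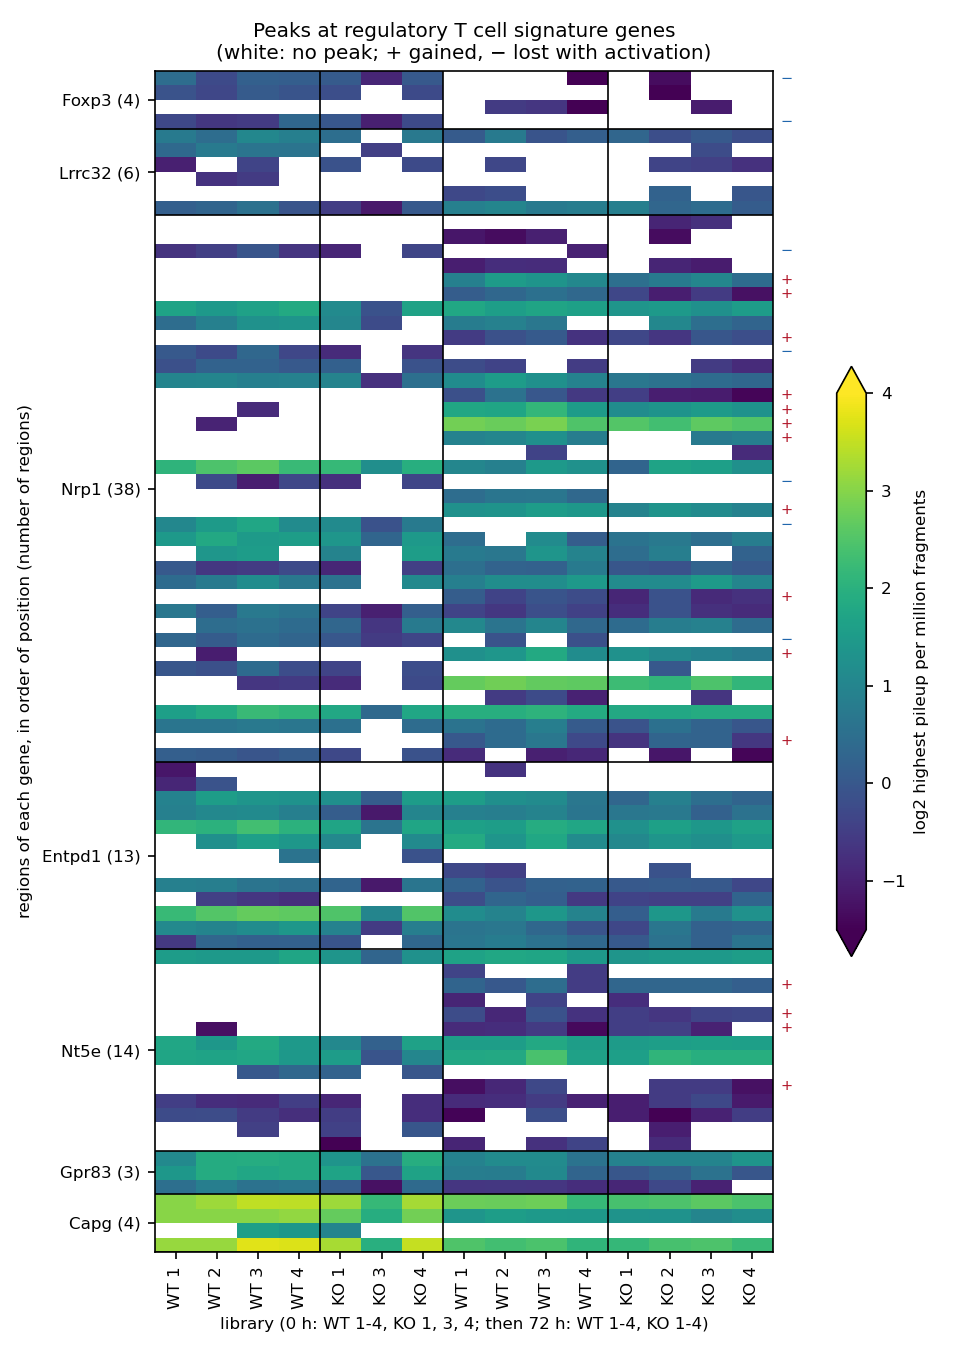
Each row is 1 of the 82 regions, grouped by gene and ordered by position, and each column is 1 library; the colour is the log2 of the highest pileup per M fragments, and white means that no peak was called. The 15 gained and 7 lost regions carry a plus or a minus sign at the right; the 72 h columns of Foxp3 are mostly white, while Capg has the brightest cells at 0 h.

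Foxp3, on chrX:7579676-7595243, had 4 regions, none of them at its start. Heights below are the authors' MACS2 pileup at the highest point of the peak, divided by the fragments after filtering in M. Region 1, chrX:7583915-7584397, lay 4239 to 4721 bp inside the gene. Its height was 1.38, 0.828, 1.13 and 1.11 in the wild-type libraries at 0 h and 1.06, 0.536 and 1.02 in the knockout libraries. After 72 h it was called in 1 of 4 wild-type libraries, at 0.350, and in 1 of 4 knockout libraries, at 0.404. Both of these peaks were lower than every resting one. All 7 resting libraries thus had the peak and 6 of 8 activated libraries did not (adjusted p = 0.0443, exact test). Omission of any single library among 13 ended that call, with adjusted p up to 0.113, and it was 0.111 without knockout library 3 at 0 h.

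Region 2, chrX:7586246-7586927, was 0.937, 0.793, 1.05 and 0.950 high in wild type at 0 h and 0.883 and 0.828 in 2 of the 3 knockout libraries; library 3 had no peak. At 72 h 1 of 8 libraries had a peak, a knockout library at 0.323. The exact test gave an adjusted p of 0.0576 with all libraries and 0.0316 without knockout library 3 at 0 h. The gene table used gives no exons, and these regions were not matched to the conserved noncoding elements.

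Region 4, chrX:7594937-7595700, crossed the end of Foxp3 and also overlapped Ccdc22, so that it cannot be given to 1 of these genes. Its height at 0 h was 0.803, 0.655, 0.688 and 1.27 in wild type and 0.988, 0.497 and 0.828 in knockout. No library had a peak there at 72 h. Peaks in 7 of 7 libraries against 0 of 8 gave the smallest p of the test (adjusted p = 0.00399), and the call held whichever library was left out. Region 3, chrX:7593235-7593536, had the opposite pattern: no peak at 0 h, and at 72 h peaks of 0.689, 0.651 and 0.350 in 3 wild-type libraries and of 0.470 in 1 knockout library. Its difference did not pass the test (adjusted p = 0.207).

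All Foxp3 peaks were low. By limma, 65.4% of the regions with a peak in every library were lower per M at 72 h. At 72 h the lowest peak anywhere in a library stood at 0.323 to 0.356 per M, or 7 to 9 fragments, and the absence of a peak call at Foxp3 does not show closed chromatin. Keeping only the 29994 strongest peaks of each library left regions 1 and 4 without a call (adjusted p = 0.19 for each). Keeping only peaks with a −log10 q-value of at least 5 left regions 1, 2 and 4 called (adjusted p = 0.00368, 0.0114 and 0.0114, exact test). Region 3 was not called there (adjusted p = 0.717), and the share of all regions called in these 2 settings is not given here. Within 100 kb of Foxp3 lay 15 further regions assigned to 8 neighbouring genes, of which 8 had a peak in all 15 libraries and 0 were gained or lost. The nearest on either side, at the outer bound of Ppp1r3f (chrX:7574002-7575124) and of Ccdc22 (chrX:7604950-7606051), both had peaks in 7 of 7 and 8 of 8 libraries.

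**Figure D2:**
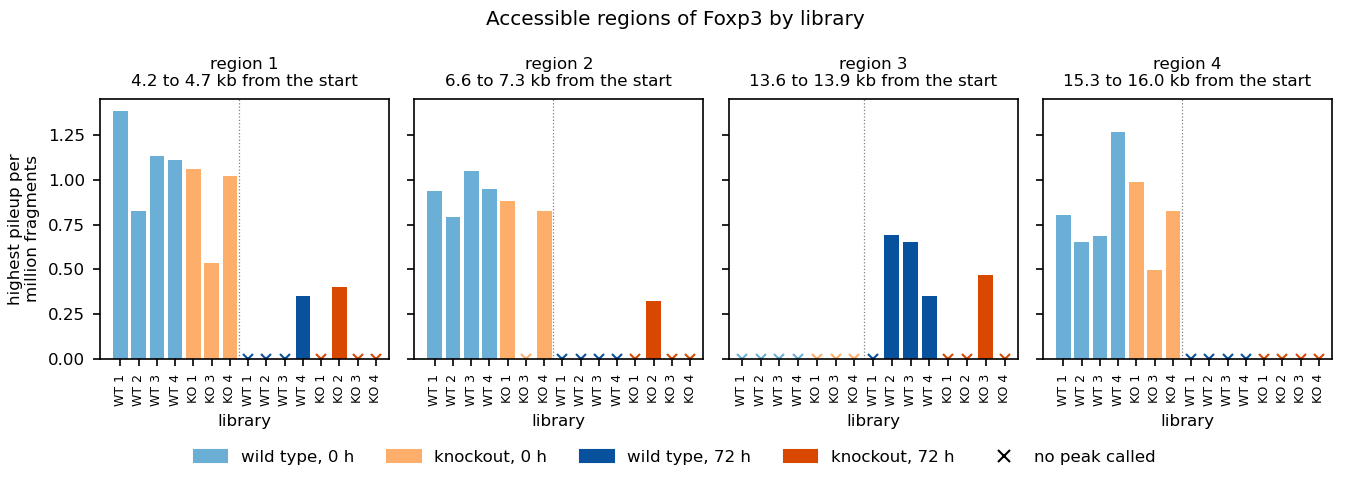
Bars give the highest pileup per M fragments of the 4 Foxp3 regions in each library (WT, wild type; KO, knockout), and a cross marks a library without a peak; panel titles give the distance from the upstream Foxp3 start. Regions 1 and 4 have a peak in all 7 libraries at 0 h, against 2 and 0 of 8 at 72 h, and region 3 has peaks at 72 h alone.

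Lrrc32, on chr7:98489305-98501831, had 6 regions, and none was gained or lost. Its start region, chr7:98488572-98490614, had a peak in all libraries but knockout library 3 at 0 h, with heights of 1.38 to 2.06 at 0 h and 0.888 to 1.71 at 72 h. A region inside the gene, chr7:98491801-98492088, was present at 1.29, 1.69, 1.54 and 1.54 in the 4 wild-type libraries at 0 h. It appeared at 0.727 in knockout library 3 at 0 h and at 0.854 in 1 of 8 libraries at 72 h (adjusted p for activation = 0.15). The farthest region of the gene was chr7:98533791-98535575, 31960 bp beyond the end of the gene. Its height was 1.12, 1.21, 1.46 and 0.950 in wild type and 0.706, 0.459 and 1.02 in knockout at 0 h. In activated cells it was 1.86, 2, 1.68 and 1.79 in wild type and 1.82, 1.25, 1.37 and 1.08 in knockout. The 72 h libraries were higher within each genotype with no overlap, and higher by 0.81 ± 0.20 (SE) on the log2 scale over both (limma adjusted p = 0.00013).

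Of 11 genes that release or receive TGF-beta next to GARP, all had regions: 177 in sum, of which 32 were gained (18.1%) and 10 lost (5.65%), near the 18.4% and 4.65% of all regions. The largest numbers of called regions, which follow how many regions a gene has, were at Ltbp1, a latent TGF-beta binding protein, with 10 of 23 regions gained, and at Tgfbr3, an accessory receptor, with 4 of 34 gained and 3 lost. The integrin genes Itgb1 and Itgav gained 6 of 21 and 5 of 12.

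Nrp1, on chr8:128358591-128505476, held 38 regions, with no other protein-coding gene's region within 100 kb of it. The start region, chr8:128357200-128359996, was called in all 15 libraries at 0.918 to 3.60 per M. Gains and losses were interleaved: 6 of the 11 gained regions and 3 of the 5 lost ones lay inside the gene, the rest on either side. Of the gained regions 10 were in both of the authors' final lists for 72 h, the exception being a region missing in 2 of 4 knockout libraries, and none was in a final list for 0 h. The 5 lost regions were in both final lists for 0 h and in none for 72 h. These lists come from the same libraries and are no separate evidence.

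The highest gained region was chr8:128420325-128421283, 61734 to 62692 bp inside the gene. It had a peak in 1 of 7 libraries at 0 h, at 0.517 in wild-type library 2. At 72 h it reached 7.13, 6.71, 7.39 and 5.64 in wild type and 5.79, 5.05, 6.19 and 5.71 in knockout. Every activated library thus stood far above the single resting peak (adjusted p = 0.0121 for presence). Its upstream neighbour, chr8:128418523-128418864, went from 1 library at 0.566 to 3.45, 3.34, 4.40 and 2.88 in wild type and 2.27, 2.50, 2.82 and 2.48 in knockout. Among regions with no peak at 0 h, chr8:128333130-128334112, 24479 bp before the gene, stood at 1.86, 2.87, 2.53 and 2.1 in wild type and 1.42, 1.70, 2.05 and 1.36 in knockout at 72 h (adjusted p = 0.00399). The 11 gained regions spanned 0.374 to 7.39 per M at 72 h.

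A region beyond the end of Nrp1, chr8:128535469-128536329, was not called by the presence test although its levels did not overlap. It had a peak in 4 of 7 libraries at 0 h, between 0.565 and 0.828. After 72 h it stood at 6.53, 6.97, 6.39 and 6.18 in wild type and 4.81, 4.36, 5.51 and 4.35 in knockout. Every activated library was above every resting peak, while presence alone gave an adjusted p of 0.245.

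Besides the start, 4 regions of Nrp1 had a peak in all libraries, of which chr8:128473633-128474801 was the highest at rest. It stood at 4.24, 5.55, 6.11 and 4.67 in wild type and 4.55, 2.33 and 3.85 in knockout at 0 h, and at 1.2 to 3.23 at 72 h, with an overlap that came from knockout library 3. It fell by 0.88 ± 0.20 (SE) on the log2 scale per M fragments (limma adjusted p = 2.84e-05). Relative to the median region of each library the difference was -0.26 ± 0.13 (SE) and did not pass the test (limma adjusted p = 0.065). Without knockout library 3 at 0 h that difference was -0.32 ± 0.13 (SE) and passed (limma adjusted p = 0.0292). The region beyond the gene at chr8:128549582-128550489 was 1.30 to 4.65 high at 0 h and 3.47 to 4.13 at 72 h, and the groups overlapped. The other 2, chr8:128390969-128391845 and chr8:128516957-128518116, stood at 0.612 to 2 and 0.497 to 1.66 at 0 h, and at 1.26 to 2.90 and 0.561 to 0.928 at 72 h.

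The lost regions of Nrp1 were led by chr8:128488053-128488776, 129462 to 130185 bp inside the gene. At 0 h it was 2.05, 2.83, 3.36 and 2.22 high in wild type and 2.19, 0.918 and 1.70 in knockout, and no library had it at 72 h (adjusted p = 0.00399). A gained region on its upstream side, chr8:128484043-128485301, did the reverse: no peak at 0 h and 2.43, 2.50, 2.91 and 2.64 in wild type and 1.96, 2.50, 2.22 and 1.92 in knockout at 72 h. The other 4 losses were weaker, with 0.485 to 1.33 per M at 0 h, and 3 of them ended when single libraries were left out: 2 for any of 13 libraries and 1 for any of 9, that 1 having an adjusted p of 0.065 without knockout library 3 at 0 h.

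**Figure D3:**
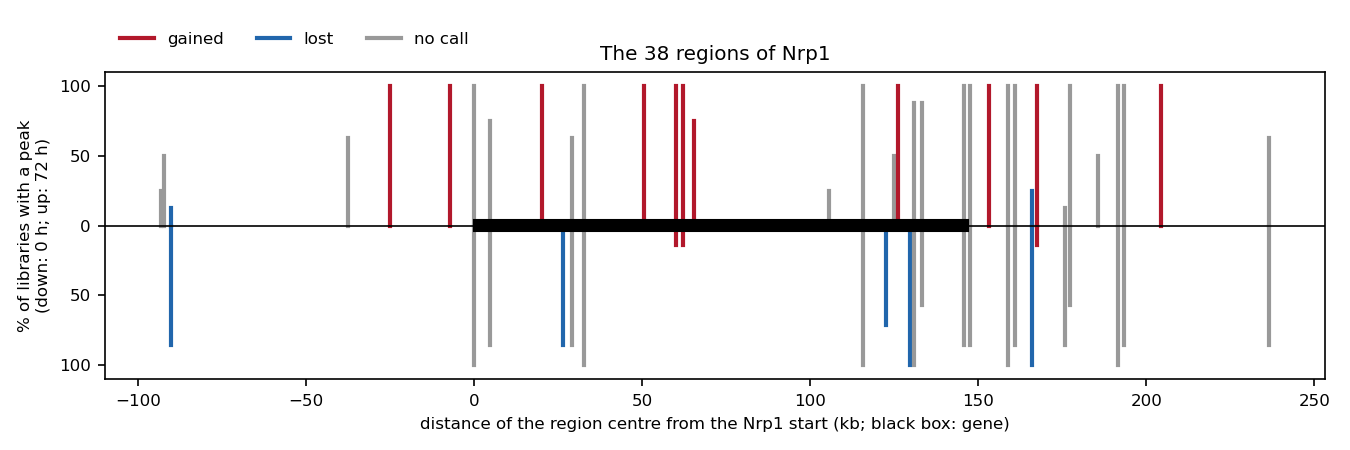
Each vertical line is 1 of the 38 regions at Nrp1, placed by its distance in kb from the gene start; its length above the axis is the percentage of the 8 libraries at 72 h with a peak, and below the axis that of the 7 libraries at 0 h. The 11 gained regions in red and the 5 lost regions in blue alternate along the gene (black box) and its flanks.

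Neuropilin ligands and coreceptors, 11 genes with 67 regions, gained 12 (17.9%, against 18.4% of all regions) and lost 5 (7.46%, against 4.65%). Nrp2, the other neuropilin, gained 3 and lost 3 of 17. Kdr, a VEGF receptor, gained 5 of 10, and Plxna2, a semaphorin receptor, gained 3 of 4; 6 of the 67 regions had a peak in all 15 libraries.

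The ectoenzyme genes differed from each other in what was gained. Entpd1, on chr19:40612366-40741602, had 13 regions, all inside the gene, with none gained or lost and 6 called in all 15 libraries. Nt5e, on chr9:88327609-88372089, gained 4 of 14 regions, 3 of them before the gene and 1 inside, and lost none. Whether the genes differ in this was not tested.

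At Entpd1 the highest resting region was chr19:40707920-40708863, 95554 to 96497 bp inside the gene. It stood at 4.64, 5.76, 6.51 and 6.18 in wild type and 5.61, 1.99 and 5.70 in knockout at 0 h. In activated cells it stood at 2.27, 1.96, 2.64 and 1.94 in wild type and 1.11, 2.66, 1.71 and 2.43 in knockout. Only knockout library 3 at 0 h reached down into the activated range, and the region fell by 1.24 ± 0.20 (SE) on the log2 scale (limma adjusted p = 3.6e-09). Per M fragments 65.4% of all fitted regions were lower at 72 h. Relative to the median region of each library this region fell by 0.62 ± 0.11 (SE). The start inside the gene lay in chr19:40659525-40661564, which was 0.459 to 2.18 high at 0 h and 1.15 to 1.95 at 72 h. The groups overlapped there, and the height per M did not pass the test (limma adjusted p = 0.374). Of the other 4 regions with a peak in all libraries, chr19:40678379-40680229 was 1.53 to 5.02 high at 0 h and 2.45 to 3.75 at 72 h. The rest, chr19:40639803-40640549, chr19:40686390-40687787 and chr19:40721013-40722848, lay between 0.459 and 2.93 at 0 h and between 0.795 and 2.96 at 72 h, with overlap at each.

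At Nt5e the clearest gain was chr9:88273302-88273699, 53910 bp before the gene. It had no peak at 0 h. At 72 h it stood at 1.22, 1.02, 1.38 and 0.700 in wild type and 1.25, 1.25, 1.24 and 1.12 in knockout (adjusted p = 0.00399). A second region 29320 bp before the gene, chr9:88297630-88298289, likewise went from 0 of 7 to 8 of 8 libraries, at 0.544 to 0.919. The other 2 gains, chr9:88309106-88309785 and chr9:88337341-88337935, had an adjusted p of 0.0443 each, which became 0.111 without knockout library 3 at 0 h. Omission of any single library among 13 ended each of these 2 calls, with adjusted p up to 0.113.

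Inside Nt5e, just past the start, chr9:88329122-88329781 had a peak in every library. It was 3.35, 3.21, 3.40 and 2.69 high in wild type and 2.89, 0.956 and 2.05 in knockout at 0 h. After 72 h it was 3.49, 3.52, 5.36 and 3.15 in wild type and 3.03, 4.28, 3.84 and 3.84 in knockout. The wild-type groups overlapped and the knockout groups did not; over both the difference was 0.66 ± 0.20 (SE) on the log2 scale (limma adjusted p = 0.00158).

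Of 13 genes that make, transport or sense adenosine, 12 had regions: 71, of which 9 were gained (12.7%, against 18.4% of all regions) and 6 lost (8.45%, against 4.65%). Adk, adenosine kinase, gained 4 and lost 4 of 24. Dpp4, which anchors adenosine deaminase, gained 2 and lost 1 of 15. Another 4 genes had 1 called region each, and 6 of the 12 had none.

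Gpr83, on chr9:14859880-14870789, had 3 regions and Capg, on chr6:72538282-72562983, had 4, and no region of either was gained or lost. At the Gpr83 start, chr9:14859759-14860865, the height was 2.14, 3.69, 3.76 and 3.60 in wild type and 2.54, 1.49 and 3.80 in knockout at 0 h. It was 1.91, 2.21, 2.22 and 1.52 in wild type and 1.91, 1.98, 1.96 and 2.57 in knockout at 72 h, so the times overlapped. The region inside the gene, chr9:14866885-14867590, was 2.68, 3.69, 3.36 and 3.56 high in wild type and 3.25, 0.995 and 3.17 in knockout at 0 h. In activated cells it was 1.78, 1.74, 2.14 and 1.21 in wild type and 0.979, 1.13, 1.49 and 0.982 in knockout. Apart from knockout library 3, every resting library was above every activated one there, and the fall was 0.96 ± 0.20 (SE) on the log2 scale (limma adjusted p = 7.5e-06). That is a fall per M fragments, by which 65.4% of all fitted regions were lower. Relative to the median region it was 0.33 ± 0.12 (SE). The region beyond the gene, chr9:14875866-14877174, was called in 14 of 15 libraries, at 0.421 to 1.79 at 0 h and 0.512 to 0.807 at 72 h.

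Capg had the highest regions of the set. The region across its outer bound, chr6:72538281-72539191, stood at 8.12, 9.21, 11 and 10.9 in wild type and 9.11, 4.51 and 9.60 in knockout at 0 h, and at 4.55 to 6.89 at 72 h. A region 5711 to 6757 bp inside, chr6:72543993-72545039, stood at 8.12, 8.07, 8.17 and 8.63 in wild type and 6.53, 3.79 and 7.06 in knockout at 0 h. At 72 h it stood at 2.59, 2.94, 2.79 and 2.68 in wild type and 2.49, 2.46, 2.01 and 2.29 in knockout. It was the only region of the 20 with a peak in every library whose resting and activated levels did not overlap at all, and it fell by 1.43 ± 0.20 (SE) on the log2 scale (limma adjusted p = 3.76e-12). A region farther inside, chr6:72552301-72553455, was 3.90 to 13.5 high at 0 h and 4.28 to 5.63 at 72 h. It fell by 0.86 ± 0.19 (SE), with an overlap that came from knockout library 3 at 0 h (limma adjusted p = 1.98e-05). Both falls are per M fragments, by which 65.4% of all fitted regions were lower, with a median of -0.66. Relative to the median region the 2 inner regions fell by 0.81 ± 0.08 and 0.23 ± 0.07 (SE).

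Of 10 actin capping and severing genes, 8 had regions: 72, of which 14 were gained (19.4%) and 4 lost (5.56%), near the 18.4% and 4.65% of all regions. Gsn, gelsolin, and Capza2, a subunit of capping protein, each gained 4 and lost 1, of 11 and 14. Capza1 and Scin each gained 2 and lost 1.

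Counted per gene, the number of regions with a peak fell at Foxp3 and rose at Nrp1 and Nt5e. The test was a two-sided exact permutation of the libraries within genotype (2450 arrangements) with adjustment over 16662 genes; it called 37.7% of all genes higher and 3.76% lower. Foxp3 had 3, 3, 3 and 3 regions in wild type and 3, 2 and 3 in knockout at 0 h, and 0, 1, 1 and 2, then 0, 2, 1 and 0, at 72 h. The groups met at 2 regions, and the mean difference, 72 h minus 0 h, was -1.96 regions (adjusted p = 0.00532, exact permutation). The Foxp3 count includes region 4, which also overlaps Ccdc22 and went from 7 of 7 libraries to 0 of 8. Nrp1 went from 17, 22, 22 and 20 in wild type and 21, 10 and 20 in knockout to 29, 29, 30 and 29 and to 22, 28, 27 and 27 (9 more, adjusted p = 0.00394). Nt5e went from 3 to 8 regions at 0 h to 8 to 12 at 72 h (3.63 more, adjusted p = 0.00394). With regions within 20 kb of the gene alone, Nt5e was not called (1 more, adjusted p = 0.425, exact permutation). Foxp3 (0.00593) and Nrp1 (0.00264) kept their calls there, and the share of all genes called in that setting is not given here. For Lrrc32, Entpd1, Gpr83 and Capg the adjusted p was 1, 0.178, 1 and 0.172.

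Activated libraries had more peaks in all, 55519 to 69086 against 29994 to 47790. After division by the number of tested regions called in each library, 5 of the 7 genes were lower at 72 h and none higher: Foxp3, Entpd1, Gpr83 and Capg at an adjusted p of 0.00111 and Lrrc32 at 0.0289. Nrp1 and Nt5e were then uncalled, at 0.417 and 0.227. With this scaling 4376 genes were higher and 6252 lower. With each library held to its 29994 strongest peaks, Nrp1 (adjusted p = 0.0026) and Nt5e (0.0212) were higher and Gpr83 (0.0026) lower, and Foxp3 stood at 0.0783. The share of all genes called in that setting is not given here.

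**Figure D4:**
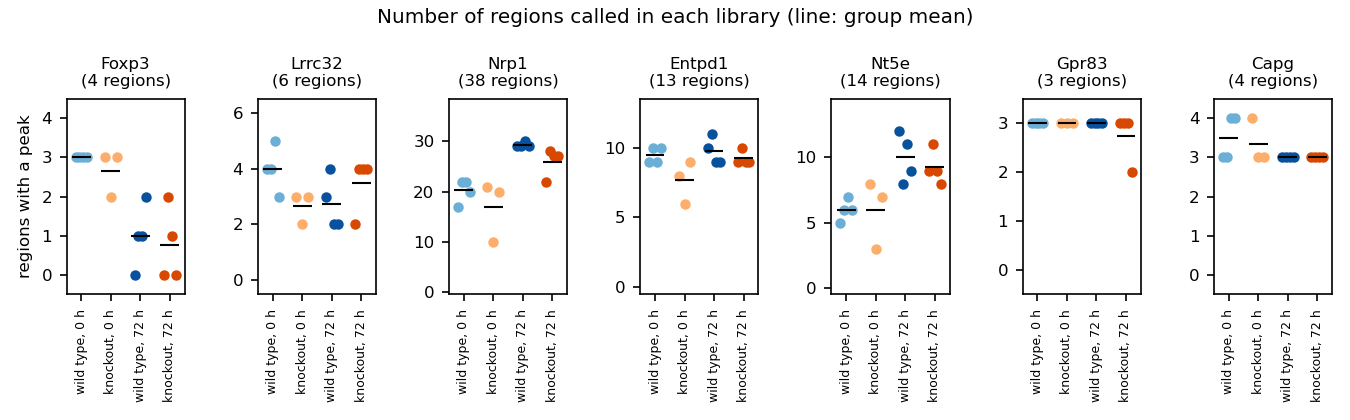
Points give the number of regions with a peak in each library for the 7 genes, by group, and lines the group means; the number of regions of the gene is in each panel title. Foxp3 falls from 2 to 3 regions at 0 h to 0 to 2 at 72 h, and Nrp1 rises from 10 to 22 to 22 to 30.

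Heights could be compared where all 15 libraries had a peak, at 21176 regions and 20 of the members. Per M fragments the median difference, 72 h minus 0 h on the log2 scale, was -0.66 over all regions and -0.29 over the members. limma called 2 members higher and 9 lower, against a background of 8.89% and 65.4%. The spread in that fit was taken from all regions together, with 232936 degrees of freedom against 11 left over for 1 region. Its p-values can therefore be too small or too large wherever libraries deviate as a whole. An exact permutation of the libraries within genotype, added after the data were seen, called 3 higher and 7 lower (background of 8.93% and 61.6%). For knockout against wild type the permutation gave more calls than limma, with 19.6% of all regions lower against 0.151%. Without knockout library 3 at 0 h, limma called 2 higher and 12 lower (12.4% and 71.5% of all). Per M fragments, limma called 1 member higher and 10 lower in wild type (5.14% and 65.2% of all regions) and 2 higher and 3 lower in knockout (7.57% and 39.7%). With missing peaks set to the lowest height of their library, 24 of the 82 were higher and 25 lower (29.6% and 29.1%).

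Relative to the median region of each library, 11 members were higher and 4 lower at 72 h, against 34.4% and 39.1% of all regions. The members' median difference was 0.33 and that of all regions -0.04 on the log2 scale. The 11 were the Lrrc32 region beyond the gene, the Nrp1 start region and 2 others of Nrp1, 4 regions of Entpd1 and all 3 fitted regions of Nt5e, its start included. The 4 were the Entpd1, Gpr83 and both inner Capg regions described above. At the Nrp1 start the relative difference was 0.88 ± 0.10 (SE) and at the Nt5e start 0.93 ± 0.10, although neither passed the test per M fragments (limma adjusted p = 0.228 and 0.155). Without knockout library 3 at 0 h, 9 were higher and 5 lower, against 34.9% and 40.9% of all regions.

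On both scales, 6 regions were called in the same direction by limma and by the exact permutation, with and without knockout library 3 at 0 h by limma. The Lrrc32 region beyond the gene and the Nt5e region just past the start were higher at 72 h, by 1.43 ± 0.14 (SE) and 1.29 ± 0.11 relative to the median region. The Entpd1, Gpr83 and both inner Capg regions were lower, and relative to the median they fell by 0.62 ± 0.11, 0.33 ± 0.12, 0.81 ± 0.08 and 0.23 ± 0.07. With all libraries, another 5 regions were lower by limma per M and were not called relative to the median. Relative to the median, the start of Gpr83 and the outer region of Capg differed by 0.15 and 0.09 (limma adjusted p = 0.202 and 0.165). The Nrp1 regions chr8:128473633-128474801 and chr8:128516957-128518116 differed by -0.26 and 0.04 (limma adjusted p = 0.065 and 0.799), and the Entpd1 region chr19:40721013-40722848 by 0.13 (limma adjusted p = 0.379). Without knockout library 3 at 0 h, chr8:128473633-128474801 was lower relative to the median too, by 0.32 (limma adjusted p = 0.0292).

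**Figure D5:**
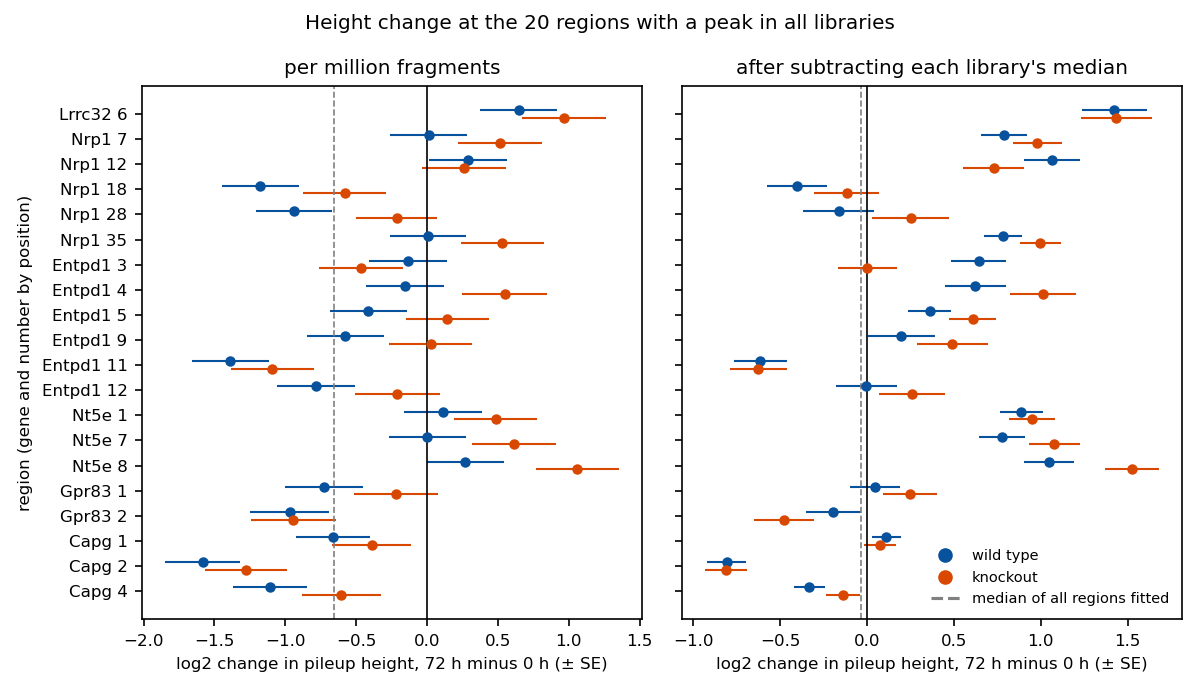
Points give the log2 change in height from 0 h to 72 h of the 20 regions with a peak in all libraries, per genotype with the standard error from limma, per M fragments on the left and relative to each library's median on the right; the dashed line is the median of all 21176 regions. Capg region 2 lies farthest left in both panels, and Lrrc32 region 6 lies right of 0 for both genotypes in both.

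Loss of Irf5 was compared within each time. No member region differed in peak presence (0 of 82, background 0%), and 0 also by an unstratified Fisher test; 1 was under an unadjusted p of 0.05. That region was inside Nrp1, chr8:128483401-128483796. No library had it at 0 h. After 72 h it stood at 1.38, 1.56, 1.57 and 1.28 in the 4 wild-type libraries, or 33 to 43 fragments, and in none of the 4 knockout libraries, where the lowest peaks called anywhere stood at 0.323 to 0.356. The exact test allowed no smaller p than 0.0286 for this split (adjusted p = 1). When missing peaks were set to the lowest height of their library, limma gave an adjusted p of 0.000514 for genotype over both times and 0.00161 for the difference of activation between genotypes. It was the only one of the 82 called for genotype over both times in that fit, in which 0.0107% of all regions were higher and 0.432% lower in knockout. Its size and its p-values there depend on the heights filled in. Both 0 h groups and the knockout group at 72 h held filled-in heights alone, so their spread is that of the fill. That fit therefore does not decide whether the region differs by genotype. The next region downstream had a peak in all 8 activated libraries. The difference of activation was called at no other member, against 0.0549% of all regions higher and 0.0573% lower in knockout. At 0 h alone that fit called 1 member lower, the Lrrc32 region chr7:98491801-98492088 (limma adjusted p = 0.029, against 0.00239% of all regions higher and 0.235% lower). A peak was called there in 1 of 3 knockout libraries and the other knockout heights were filled in. At 72 h alone the fit called 1 more member than the first, the gained Nrp1 region chr8:128351092-128351853, against 0.0716% of all regions higher and 1.55% lower. This Nrp1 region stood at 1.09, 1.27, 1.45 and 1.28 in wild type and 0.801, 0.484, 0.683 and 0.421 in knockout, with no overlap. It was lower in knockout by 1.13 ± 0.22 (SE) on the log2 scale (limma adjusted p = 0.0144). Its 0 h heights were all filled in and enter that SE.

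Per gene, 0 of 7 differed by genotype in the number of regions (background 0%), with Entpd1 alone under an unadjusted p of 0.05 (p = 0.0367, exact permutation; adjusted p = 0.501). Per M fragments, the difference knockout minus wild type was from -0.71 to -0.15 on the log2 scale at the 20 fitted member regions, and -0.37 at the median of all regions. limma called 0 of the 20 (lowest adjusted p = 0.0643; 12 under an unadjusted p of 0.05; background 0.00472% higher and 0.151% lower). The exact permutation called 7 lower, against a background of 19.6% lower and 0.0236% higher. Relative to each library's median, both tests called 0, with 2 under an unadjusted p of 0.05 by limma (0.973% of all regions higher and 0.085% lower by limma, 0% by permutation). Leaving out knockout library 1 or 4 at 0 h raised the limma calls to 11 and 17 of 20, all lower, with 5216 and 16800 such calls over all regions. Without knockout library 3 at 0 h, 0 were called over both times and 3 at 72 h, against 4.81% of all regions: Nrp1 chr8:128390969-128391845 fell by 0.72, Entpd1 chr19:40639803-40640549 by 0.66 and Gpr83 chr9:14866885-14867590 by 0.58. With all 15 libraries these 3 differences had the same size, at a limma adjusted p of 0.812 each. Leaving out a 0 h library changes the pooled spread and no 72 h height. The SE at the Nrp1 region went from 0.28 to 0.19. The difference of activation between genotypes was not called at any of the 20 (lowest adjusted p = 0.856; 1 under an unadjusted p of 0.05; background 0%).

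Of 22 genes known to act on Foxp3, 6 had gained regions alone, 4 lost regions alone, 9 both and 3 neither. They had 436 regions, of which 44 were gained (10.1%, against 18.4% of all regions) and 42 lost (9.63%, against 4.65%). Bach2, a repressor of effector genes, gained 7 and lost 8 of 73. Nfatc2, a calcium-dependent factor that binds Foxp3 enhancers, gained 9 of 26 and lost none, and Runx1, which forms a complex with Foxp3, gained 3 and lost 4 of 40. Tet2, a DNA demethylase, gained 6 of 24. Satb1, which opens regulatory T cell enhancers during development, and Creb1, which binds Foxp3 DNA in its unmethylated state, had as many changes as Tet2: Satb1 lost 6 of 36 and gained none, and Creb1 gained 2 and lost 4 of 16. Of 18 other regulatory T cell genes, with 183 regions, 25 were gained (13.7%) and 16 lost (8.74%), against the same 18.4% and 4.65%. The most called regions were at Ikzf2, encoding Helios, which gained 3 and lost 6 of 30, and at Ctla4, an inhibitory receptor, which gained 3 and lost 4 of 19. Prdm1, encoding Blimp-1, gained 4 and lost 1 of 24, and Il2ra, encoding CD25, gained 3 and lost 2 of 18. No region of any of the 6 gene lists was called for genotype.

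The genes whose share of regions called was nearest to a member's over the 15 libraries were sought among 5464 genes with at least 5 regions; Foxp3, Gpr83 and Capg had fewer. For Nrp1, at 49.6% of regions at 0 h and 72.7% at 72 h, the nearest were Vrk1 and Ccne1, 4.72 and 5.01 percentage points away (root mean square). For Nt5e, at 42.9% and 68.8%, they were Rad23b and Tet2, at 6.03 and 6.45. For Lrrc32, at 57.1% and 52.1%, they were Kcnf1 and Ampd3, at 10.5 and 10.9. These shares follow the number of peaks in a library, which all genes have in common, so the likeness is a description.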

How the data were processed

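ATAC-seq peak lists of 15 libraries of mouse CD4+ T cells were used. Per the submitters' processing notes, Trim Galore 0.5.0, Bowtie2 2.2.9, MACS2 and HOMER 4.10.4 were used with mm10; per the file headers, peaks were called per library with MACS2 2.1.1.20160309 from read pairs, with no control, at a q-value cutoff of 0.05, keeping 1 duplicate fragment. The deposited columns are the pileup, a coverage signal, the fold enrichment, a ratio, and the −log10 of p and q; the score in the authors' 4 final lists is not explained in the sources used here, and those lists served only for overlap. Lists merged over replicates were not used. Wild-type library 4 came at both times from an alignment numbered 5, per the file headers.

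From these, the 15 lists were joined into 111393 regions (overlap of at least 1 bp), of which 83743 had a peak in at least 2 libraries. Each was assigned to the nearest protein-coding gene within 100 kb (RefSeq, GRCm38.p6; 93.5% had one). Peak presence was tested by an exact conditional test, heights by limma 3.58.1 in R 4.3.3 on log2 values with no pseudocount at 21176 regions, and regions per gene by exact permutation, each adjusted over the whole table; Python 3.11.15, numpy 2.4.6, pandas 2.3.3 and scipy 1.17.1 were used. The procedures were tested on simulated data, drawn independently between libraries with no library-wide shift. Those runs cannot show how the tests behave under the library-wide shifts seen here. A library of 20.5 to 29.0 M fragments had its lowest peak at 7 to 10 fragments, which limits low regions. Regions were given in full if they touched a gene start, had a peak in all libraries or passed a test, and by ranges beyond 6 a gene; up to 4 genes a list were named by called regions, and 2 a member by likeness; 1 marker and the likeness of Entpd1 are not reported here. Alternatives covered peak cutoffs, equal peak numbers, region rules, gene distance, scalings, missing peaks, a replicate block and leaving out each library. The members and lists were chosen with earlier results of these data known.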

Additional observations from a re-analysis of the deposited data

Results flagged for a closer look

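In groups of 4 libraries, 76 sets of member values were checked for a highest or lowest library whose gap to the next exceeded 0.829 of the group's range, which chance gives in about 5% of sets without ties. In all 13 met it: 8 of heights and 5 of counts. Among heights per M fragments, Entpd1 region 9 had a lowest library at 0.943 in wild type and at 0.795 in knockout at 72 h. Capg region 1 had 1 wild-type library at 4.55 at 72 h, below the others at 6.68 to 6.89. Gpr83 region 1, at the start, had 1 wild-type library at 2.14 at 0 h, below 3.60 to 3.76, and 1 knockout library at 2.57 at 72 h, above 1.91 to 1.98. At 72 h a wild-type library was highest at Nt5e region 7 (3.52) and region 8 (5.36), and a knockout library at Nrp1 region 28 (0.928).

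Among numbers of regions with a peak at 72 h, 1 knockout library had 2 at Lrrc32 against 4 in the others, 22 at Nrp1 against 27 to 28, 10 at Entpd1 against 9, or 2 at Gpr83 against 3. A wild-type library had 30 at Nrp1 against 29. Each of these 5 sets of counts holds ties, so a library 1 region apart can meet the measure and the 5% does not apply.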

How the results depend on the processing

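The 22 regions called for activation by peak presence became 10 when each library was held to its 29994 strongest peaks. They ranged from 15 to 21 when libraries were left out one by one. The share of all regions called in these runs is not given here, so these counts cannot set the members apart from other regions. The 11 called by height became 49 of 82 when missing peaks were set to the lowest height of their library. In that setting 29.6% of all regions were higher and 29.1% lower. With libraries left out the count by height ranged from 9 to 14, with no share of all regions given for each run. The 0 called by height for genotype became 1 with missing peaks at the lowest height and 7 with the exact permutation, and ranged from 0 to 17 with libraries left out, the high values coming without knockout library 1 or 4 at 0 h. The 3 genes called by number of regions became 5 after division by all tested regions called, but not the same genes. Foxp3 kept its call, Nrp1 and Nt5e lost theirs, and Lrrc32, Entpd1, Gpr83 and Capg were called lower. With each library left out the 3 genes kept their calls. With regions within 20 kb of the gene alone, Nt5e lost its call. The cause was not tested. With the replicate number as a block, presence and gene calls fell to 0 and 0, where the block test cannot give a p below 0.0156, and height calls stayed at 11. Correlations of same-numbered libraries ran from -0.17 to 0.23, and in 1 case a pair exceeded 0.1. With 3 or 4 pairs in each comparison, these cannot show whether equal numbers mark a shared source.

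After each library's median was subtracted, with limma or with the exact permutation, differences that were negative per M turned positive at Entpd1 region 3 (0.32), region 5 (0.49), region 9 (0.35) and region 12 (0.13), Capg region 1 (0.0937), Nrp1 region 28 (0.0445) and Gpr83 region 1 (0.15). Quantile normalization gave 0.50 at Entpd1 region 5, 0.28 at Capg region 1 and 0.0389 at Gpr83 region 1, and fold enrichment gave 0.0392 at Gpr83 region 1. With the median subtracted and knockout library 3 at 0 h left out, the values were 0.38, 0.000688 and 0.0535. Of the values of single regions and genes under the alternatives, 294 kept their side of the threshold, 71 lost their call and 39 acquired one. Another 20 changed sign where either setting gave a call. A change of sign between uncalled values is counted among the 294.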
